A study of Mus musculus with 6 samples.

Results

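The genes described here encode fibroblast growth factors (FGFs), their receptors and the Sprouty inhibitors. They are 10 genes, taken by name from a deposited table of 13962 genes: the ligands Fgf2, Fgf7, Fgf10 and Fgf21, the receptors Fgfr1, Fgfr2 and Fgfr3, and the inhibitors Spry1, Spry2 and Spry4. All 10 had a row, and all 10 passed the filter on low counts. Poly(A) RNA came from mouse beige adipocytes, fat cells of white adipose tissue that can take on heat-producing features of brown fat. Both groups derive from inguinal preadipocytes (TLE3F/F CreERT2, C57BL/6 background) immortalized with the large T antigen. They were differentiated with insulin (20 nM), T3 (1 nM), isobutylmethylxanthine (0.5 mM), dexamethasone (0.5 uM), indomethacin (0.125 mM) and rosiglitazone (1 uM), and insulin, T3 and rosiglitazone stayed in the medium after the first days. The group labelled knockout (n = 3) received 4-hydroxytamoxifen (500 nM) on day 4 for 24 hours, which activates the Cre recombinase against the floxed Tle3 alleles. The control group (n = 3) received ethanol for the same time, and all cells were harvested on day 10. The labels do not say what drives the Cre, how many lines were used or whether replicates were separate cultures. The p-values therefore measure the spread among 6 libraries only, and that spread may be technical. No cells lacking Cre received the compound, so effects of tamoxifen or Cre and of the deletion cannot be told apart.

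FGFs are secreted proteins that bind receptor tyrosine kinases together with heparan sulfate chains on the cell surface, and the receptors signal through the RAS-ERK cascade. FGF7 and FGF10 are made by mesenchymal cells and act on the same splice form of FGFR2, FGF2 is a broadly acting mitogen of preadipocytes, and FGF21 is a circulating hormone that needs the co-receptor beta-Klotho with FGFR1. Sprouty proteins are induced by ERK signalling and dampen it, so they act as feedback inhibitors.

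Tle3, the targeted gene, went against its label. It stood at 287, 289 and 294 CPM (counts scaled to the library total with TMM factors) in the libraries labelled knockout, against 151, 151 and 152 CPM in the control libraries (edgeR adjusted p = 3.54e-07). Whole-gene counts cover exons outside the deleted part too and cannot check the deletion. Every direction given here is therefore that of the libraries labelled knockout relative to control, and rests on the labels. Of 6 tested genes of the TLE family 4 rose (Tle3 itself, Aes, Tle4 and Tle1) and 0 fell, but without knockout 3 only 2 rose. Aes rose by 0.39 on the log2 scale (edgeR adjusted p = 8.89e-04). Its call held without any 1 library (edgeR adjusted p from 0.0012 to 0.0071). Tle4 rose by 0.32 (edgeR adjusted p = 0.0157) and lost its call only without knockout 3 (edgeR adjusted p = 0.0828). Tle1 was not called by DESeq2 (adjusted p = 0.0801) or without any 1 library other than control 1 (edgeR adjusted p from 0.0636 to 0.12). Library totals were 14606228 to 15933996 counts in the libraries labelled knockout and 14832434 to 19294632 counts in the control libraries. Across 13192 tested genes 12.3% were called at an adjusted p under 0.05; 6.91% rose and 5.44% fell.

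Of the 10 FGF and Sprouty genes, 4 fell and 0 rose in the libraries labelled knockout, beside 5.44% of all tested genes that fell. The 4 were the ligands Fgf2, Fgf7 and Fgf10 and the inhibitor Spry2, and their levels were 1.34-fold to 1.48-fold lower. The receptors did not pass the test. The median log2 fold change was −0.18 over the 10 genes and −0.0025 over all tested genes, and 7 of the 10 were negative. For Fgf2, Fgf7 and Spry2, 3 of the 10 genes, every library labelled knockout lay below every control library, as for 15.8% of all tested genes; 0 of the 10 lay wholly above, as for 16% of all tested genes. In such bulk RNA, fewer cells of a type and less RNA per cell cannot be told apart.

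**Figure D1:**
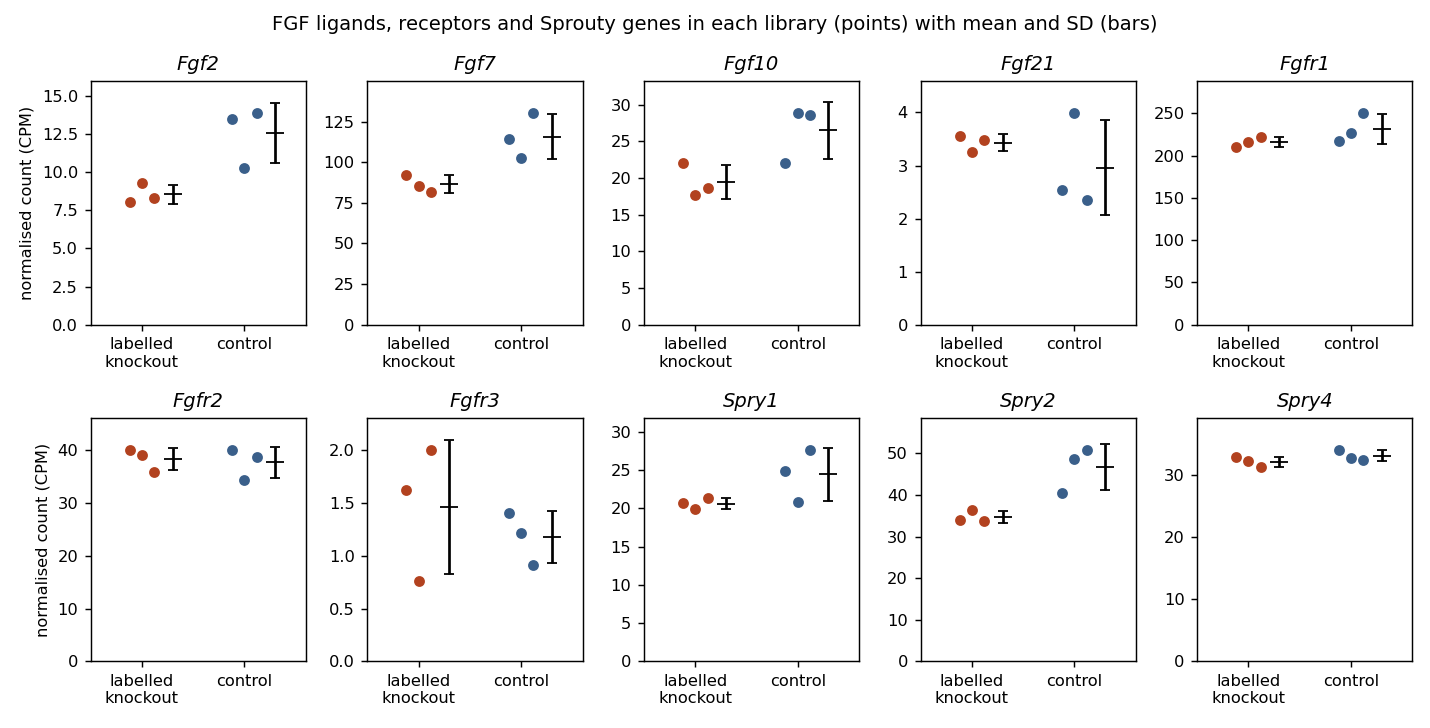
Normalised counts (CPM, linear axes from 0) of the 10 genes in each library; points are libraries, bars are the mean and SD of 3 libraries, and the libraries labelled knockout stand left of the control libraries. The groups are separate for Fgf2, Fgf7 and Spry2 and overlap for the other 7 genes.

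Upstream sequence is shown for the 4 genes that fell together. RefSeq promoters (build GRCm38.p6) matched 8 of the 10 genes by symbol, all but Fgfr1 and Spry4, and the 250 bases before each annotated start were used. For Fgfr2 alone, the bases just after that start were found in no GENCODE M21 transcript of the gene. The 4 lie at chr3:37348403-37348652 (Fgf2, plus strand), chr2:126034408-126034657 (Fgf7, plus strand), chr13:118714449-118714698 (Fgf10, plus strand) and chr14:105896820-105897069 (Spry2, minus strand). They are written 5′ to 3′, with capitals for a match to CCCNNGGG.
Fgf2: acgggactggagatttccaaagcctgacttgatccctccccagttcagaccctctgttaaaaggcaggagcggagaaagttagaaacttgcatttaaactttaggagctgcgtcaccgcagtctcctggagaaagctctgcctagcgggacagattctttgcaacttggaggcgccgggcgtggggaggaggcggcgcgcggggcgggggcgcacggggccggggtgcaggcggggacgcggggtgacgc
Fgf7: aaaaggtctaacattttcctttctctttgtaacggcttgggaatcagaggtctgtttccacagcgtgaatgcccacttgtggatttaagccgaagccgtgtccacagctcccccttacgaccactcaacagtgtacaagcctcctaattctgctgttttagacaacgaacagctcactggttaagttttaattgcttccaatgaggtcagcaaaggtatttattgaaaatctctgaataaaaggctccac
Fgf10: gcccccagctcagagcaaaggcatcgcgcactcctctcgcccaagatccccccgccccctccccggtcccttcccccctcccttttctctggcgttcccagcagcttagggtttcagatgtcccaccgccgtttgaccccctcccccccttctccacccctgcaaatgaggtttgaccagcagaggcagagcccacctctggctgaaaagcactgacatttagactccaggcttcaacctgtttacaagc
Spry2: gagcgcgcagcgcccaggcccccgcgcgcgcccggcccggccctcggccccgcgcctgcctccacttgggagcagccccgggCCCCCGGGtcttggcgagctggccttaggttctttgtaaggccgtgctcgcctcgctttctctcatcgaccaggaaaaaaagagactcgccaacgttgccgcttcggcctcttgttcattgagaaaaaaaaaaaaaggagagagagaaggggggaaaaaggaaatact

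These promoters differ in composition. GC content was 43.6% for Fgf7 and 61.2% to 62.4% for Fgf10, Fgf2 and Spry2, beside a median of 52.4% over 32851 promoters. CCCNNGGG, the core of the motif of EBF factors, which regulate adipocyte genes, was found once in the Spry2 sequence, starting at position −168 from the start, and not in those of Fgf2, Fgf7 and Fgf10. Among the other 4 genes with a promoter entry it was found once in that of Fgf21, which was not called, at position −197, and not in those of Fgfr2, Fgfr3 and Spry1. On either strand it occurs in 11.8% of all promoters of this length. CCGGAA, the core recognised by ETS factors, occurs in 12% of them and was found in none of the 8. AGGTCANAGGTCA, the direct repeat bound by PPAR and RXR, occurs in 0.0335% and was found in none of the 8. Both strands were searched for each motif.

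Fgf7 was the most abundant ligand. Its levels were 92.4, 85.2 and 81.9 CPM in the libraries labelled knockout and 114, 103 and 130 CPM in the control libraries. The groups did not overlap, and the spread was wider among the controls. The means were 86.5 ± 5.34 CPM in the libraries labelled knockout and 115.8 ± 13.9 CPM in the control libraries (SD, n = 3 each). On the log2 scale the change was −0.42, with an SE of 0.079 and a 95% interval of −0.60 to −0.25 (edgeR adjusted p = 0.0070). The call held without any 1 library, with edgeR adjusted p from 0.0017 to 0.0445.

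Fgf10, the other ligand of the FGFR2 splice form bound by FGF7, had 22.1, 17.7 and 18.7 CPM in the libraries labelled knockout and 22.1, 28.9 and 28.6 CPM in the control libraries. The groups met in the first library of each, where knockout 1 and control 1 had nearly equal levels. Fgf10 averaged 19.5 ± 2.30 CPM in the libraries labelled knockout and 26.5 ± 3.87 CPM in the control libraries (SD, n = 3 each). Its log2 change was −0.44, with an SE of 0.114 and a 95% interval of −0.69 to −0.19 (edgeR adjusted p = 0.0298). Its call was lost without control 2, control 3, knockout 2 or knockout 3 (edgeR adjusted p from 0.06435 to 0.124).

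Fgf2, which lacks a classical secretion signal and is stored in the matrix, showed the largest fall of the 10 genes. It had 8.04, 9.26 and 8.30 CPM in the libraries labelled knockout and 13.5, 10.3 and 13.9 CPM in the control libraries. Control 2 was the lowest control, and still above the highest library labelled knockout. The means were 8.54 ± 0.643 CPM in the libraries labelled knockout and 12.6 ± 1.97 CPM in the control libraries (SD, n = 3 each). The log2 change of −0.57 had an SE of 0.125 and a 95% interval of −0.84 to −0.29 (edgeR adjusted p = 0.0142). The call was lost without control 1 (edgeR adjusted p = 0.0613) or knockout 3 (edgeR adjusted p = 0.0701). Nudt6, on the opposite strand, shares 640 exon bases with Fgf2 in GENCODE M21, and since the counting is not stated to use strand, reads of the shared stretch cannot be told apart. Nudt6 itself averaged 5.56 ± 0.448 CPM in the libraries labelled knockout and 4.91 ± 0.108 CPM in the control libraries (SD, n = 3 each, edgeR adjusted p = 0.384). Genes not tested here also share GENCODE M21 exon bases with Spry1 (710 of 2906 bases) and Fgfr3 (998 of 7158). Smaller such overlaps exist for Fgf2 (255 of 6782), Fgfr1 (164 of 9875) and Fgf10 (123 of 4601).

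Fgf21, the hormone-like ligand, was close to the lower end of what these libraries could measure. Its raw counts were 57, 47 and 52 in the libraries labelled knockout and 45, 59 and 46 in the control libraries. Control 2 held the highest of the 6 normalised levels and the other controls the lowest, so the groups overlapped. The log2 fold change was 0.24 with a 95% interval of −0.21 to 0.69 (edgeR adjusted p = 0.489), or 0.864 to 1.62 times the control level.

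Among the receptors, Fgfr1 was the most abundant and none of the 3 passed the test. Fgfr1 had 210, 216 and 222 CPM in the libraries labelled knockout and 217, 227 and 251 CPM in the control libraries. Control 3 stood above the other 5 libraries, and the groups overlapped. Its log2 fold change was −0.10 (95% interval −0.22 to 0.02, edgeR adjusted p = 0.258). A second row of the table also carries the name Fgfr1 and holds 98 to 125 counts per library labelled knockout and 59 to 153 per control library. Summing both rows, a choice made after the data were seen, gave a log2 fold change of −0.09 (edgeR adjusted p = 0.331).

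Fgfr2, the receptor of FGF7 and FGF10 in one of its splice forms, had 40.0, 39.2 and 36.0 CPM in the libraries labelled knockout and 40.2, 34.4 and 38.6 CPM in the control libraries. The groups lay on top of each other, and the log2 fold change was 0.02 (95% interval −0.13 to 0.17, edgeR adjusted p = 0.875). Counts per gene do not separate its splice forms. In GENCODE M21 Fgfr2 shares 314 exon bases on the same strand with Ctbp2, which averaged 23.8 ± 2.47 CPM in the libraries labelled knockout and 25.7 ± 1.92 CPM in the control libraries (SD, n = 3 each; edgeR adjusted p = 0.452).

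Fgfr3 was at the edge of detection, with 26, 11 and 30 counts in the libraries labelled knockout and 25, 18 and 18 counts in the control libraries. Knockout 2 was the lowest and knockout 3 the highest of the 6 normalised levels. The log2 fold change of 0.33 had a 95% interval of −0.40 to 1.05 (edgeR adjusted p = 0.567). The coefficient of variation was 43.7% in the libraries labelled knockout and 20.9% in the control libraries.

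Spry2, one of the Sprouty feedback inhibitors, fell. Its levels were 34.0, 36.3 and 33.8 CPM in the libraries labelled knockout and 40.5, 48.7 and 50.9 CPM in the control libraries. All 3 control libraries stood above the others, with control 1 nearest to them. The means were 34.7 ± 1.37 CPM in the libraries labelled knockout and 46.7 ± 5.50 CPM in the control libraries (SD, n = 3 each). Spry2 changed by −0.43 on the log2 scale, with an SE of 0.081 and a 95% interval of −0.61 to −0.25 (edgeR adjusted p = 0.0073). The call held without any 1 library, with edgeR adjusted p from 0.0019 to 0.0438.

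Spry1 had 20.6, 19.9 and 21.3 CPM in the libraries labelled knockout and 24.9, 20.8 and 27.7 CPM in the control libraries. Control 2 lay among the libraries labelled knockout, so the groups overlapped. The log2 fold change was −0.25 (95% interval −0.47 to −0.04, edgeR adjusted p = 0.114), and the gene passed the threshold without control 2 (log2 −0.35, edgeR adjusted p = 0.0131).

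Spry4 was the steadiest of the 10 genes. Its levels were 32.9, 32.2 and 31.3 CPM in the libraries labelled knockout and 34.1, 32.8 and 32.5 CPM in the control libraries. The 6 values overlapped, and the log2 fold change was −0.04 (95% interval −0.17 to 0.08, edgeR adjusted p = 0.647). Whether Spry2 and Spry4 differed in their change was not tested. Permuting the CPM of the 6 libraries (exact, two-sided) gave p = 0.1 for Fgf2, Fgf7 and Spry2, the smallest that 3 against 3 libraries allow.

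**Figure D2:**
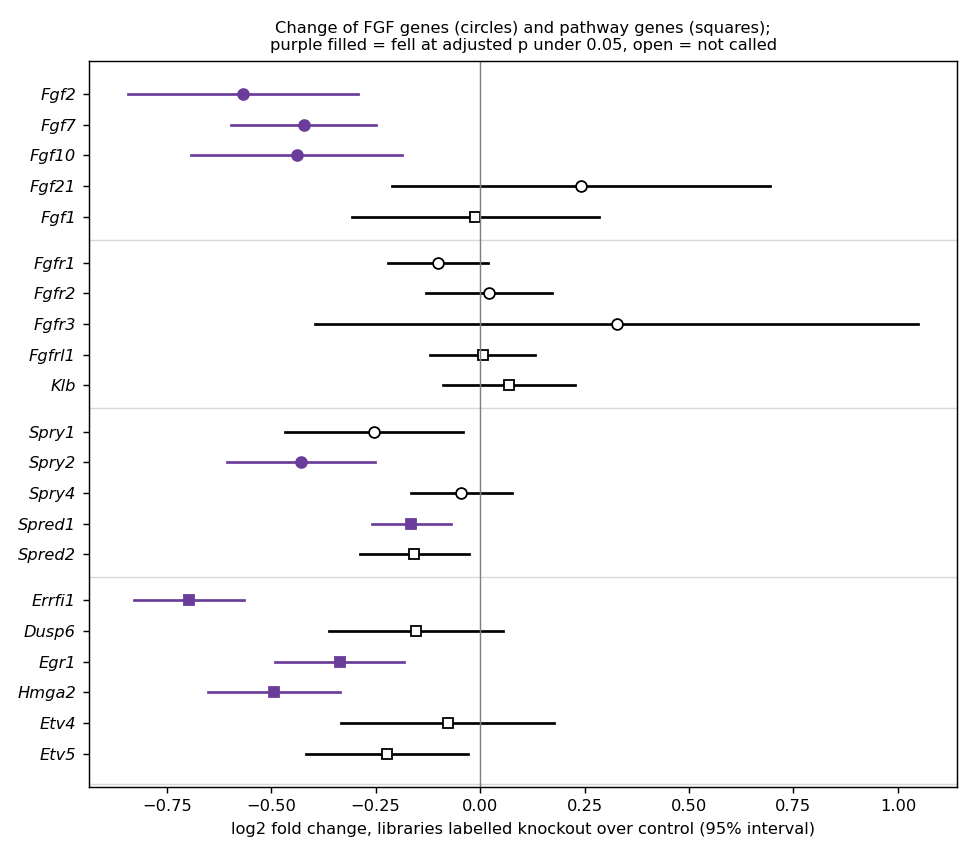
Log2 fold change of the libraries labelled knockout over control with its 95% interval (edgeR) for the 10 genes (circles) and other pathway genes (squares); purple filled symbols fell at an adjusted p under 0.05 and open ones were not called. The intervals of Fgf2, Fgf7, Fgf10 and Spry2 lie below 0, as does that of Spry1, which was not called, that of Spry4 runs from −0.17 to 0.08, and those of Fgf21 and Fgfr3 are the widest.

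On a per-length scale, the authors' FPKM rounded to whole numbers, Fgf7 and Fgfr1 led the group. Fgf7 was at 29, 26 and 25 FPKM in the libraries labelled knockout and 35, 32 and 41 FPKM in the control libraries. Fgfr1 was at 26, 27 and 27 FPKM in the libraries labelled knockout and 27, 28 and 32 FPKM in the control libraries, so the 2 genes overlapped in the first group and touched at 32 FPKM in the second. Spry2 followed at 16 to 17 FPKM in the libraries labelled knockout and 19 to 25 FPKM in the control libraries, apart from its neighbours on both sides. Spry1 and Spry4 were both at 7 FPKM in each library labelled knockout; in the control libraries Spry1 was at 7 to 10 FPKM and Spry4 at 7 FPKM. Fgf2, Fgf10, Fgfr2 and Fgf21 lay between 3 and 5 FPKM in the libraries labelled knockout and between 3 and 8 FPKM in the control libraries. In that order each overlapped the next in both groups, except that Fgfr2 stood above Fgf21 in the libraries labelled knockout. Fgfr3 was listed at 0 in all 6 libraries, a result of the rounding.

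The control libraries varied more than the libraries labelled knockout for most of these genes. In 9 of the 10 the coefficient of variation was larger among controls, as in 54.8% of all tested genes; Fgfr3 was the exception. For Fgf7 it was 6.17% in the libraries labelled knockout and 12.0% in the control libraries, and for Spry1 3.36% in the libraries labelled knockout and 14.2% in the control libraries. Control 3 was the highest of all libraries for Fgf2, Fgf7, Fgfr1, Spry1 and Spry2, 5 of the 10 genes, as for 23.6% of all tested genes. Without control 3 the edgeR adjusted p was 0.0097 for Fgf7, 0.0183 for Spry2, 0.0457 for Fgf2 and 0.0897 for Fgf10.

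Markers of fat cells and of their precursors moved in the same libraries. These cultures expressed the defining adipocyte genes, with Fabp4 at 5387 ± 659 CPM in the libraries labelled knockout and 4514 ± 657 CPM in the control libraries (SD, n = 3 each; edgeR adjusted p = 0.165). Of 16 adipocyte markers 6 rose (37.5%, beside 6.91% of all tested genes), namely Lep, Dgat2, Retn, Slc2a4, Agpat2 and Lipe, and 1, Adig, fell (6.25%, beside 5.44%). Without knockout 3 only 4 of the list were called. Lipe lost its call without control 1, control 3, knockout 2 or knockout 3 (edgeR adjusted p from 0.0612 to 0.155), Adig without control 1 or knockout 3 (0.067 and 0.0614) and Agpat2 without knockout 3 (0.0558). Their summed level ran from 11830 to 13470 CPM in the libraries labelled knockout and from 10630 to 12570 CPM in the control libraries. Of 24 tested preadipocyte and fibroblast markers 7 fell (29.2%, beside 5.44% of all tested genes) and 3 rose (12.5%, beside 6.91%); without control 2, 11 fell. They had a summed level of 16530 to 17000 CPM in the libraries labelled knockout and 16350 to 18810 CPM in the control libraries. The 6 with the smallest p were Dkk2, Lum, Dcn, Prrx1 and Thy1, which fell, and Dlk1, which rose. Most of the adipocyte sum was Fabp4 and Lpl, and most of the fibroblast sum was Col1a1, Col1a2 and Col3a1, none of them called. Control 3 had the lowest adipocyte sum and the highest fibroblast sum of the 6 libraries. FGF ligands are textbook products of stromal cells, and the part of these markers in the falls of Fgf2, Fgf7, Fgf10 and Spry2 was not tested.

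Macrophage and leukocyte markers were low. The 4 tested macrophage and leukocyte markers of 11 listed summed to 6.70 to 8.16 CPM in the libraries labelled knockout and 5.48 to 7.40 CPM in the control libraries. Of the 4, 0 were called by edgeR, DESeq2 or limma-voom, beside 12.3% of all tested genes called by edgeR. Csf1r, a macrophage receptor gene, was the 1 with an unadjusted p under 0.05; it averaged 1.86 CPM in the libraries labelled knockout and 1.26 CPM in the control libraries (edgeR adjusted p = 0.141). The defining leukocyte genes Ptprc, Adgre1 and Itgam had no row under the names searched and were not analysed here. The 9 endothelial and mural markers of 12 listed summed to 1390 to 1431 CPM in the libraries labelled knockout and 1290 to 1516 CPM in the control libraries. Most of this was Acta2, a smooth muscle actin gene that fibroblasts also express, at 1293 ± 21.1 CPM in the libraries labelled knockout and 1301 ± 115 CPM in the control libraries (SD, n = 3 each), and Mcam, at 94.95 ± 6.39 CPM in the libraries labelled knockout and 93.7 ± 3.78 CPM in the control libraries (SD, n = 3 each). Of the 7 tested, Cspg4, a pericyte marker, rose, with 6.12 ± 0.822 CPM in the libraries labelled knockout and 4.12 ± 0.385 CPM in the control libraries (SD, n = 3 each; edgeR adjusted p = 0.0276). DESeq2 did not call it (adjusted p = 0.0547), and the call was lost without control 2, control 3, knockout 2 or knockout 3 (edgeR adjusted p from 0.0528 to 0.126). The endothelial genes Pecam1 and Vwf were below the filter on low counts, with 4 to 12 counts in the libraries labelled knockout and 5 to 13 counts in the control libraries.

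Beyond the 4 ligands above, few FGF genes were measurable. Of 18 ligand genes listed, 5 were tested. Of these 3 fell (60%, beside 5.44% of all tested genes) and 0 rose (beside 6.91%). The 3 are Fgf2, Fgf7 and Fgf10, already counted above. The median log2 change of the 5 was −0.42, beside −0.0025 over all tested genes. The fifth was Fgf1, a ligand of all FGF receptors, with 7.98, 10.3 and 10.4 CPM in the libraries labelled knockout and 10.4, 10.4 and 8.17 CPM in the control libraries. Its groups overlapped, with a log2 fold change of −0.01 (95% interval −0.31 to 0.28, edgeR adjusted p = 0.969). Fgf5 had 4 to 7 counts in the libraries labelled knockout and 6 to 10 counts in the control libraries and was not tested.

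The list of receptors, co-receptors and FGF-binding proteins showed no called gene among 6 tested, beside 12.3% of all tested genes. So short a list can hold none at that share. Among the 6, Fgfbp3 encodes a secreted FGF-binding protein. Of the 6, 0 had an unadjusted p under 0.05 in edgeR, and 0 were called by DESeq2 and limma-voom. Klb, the beta-Klotho co-receptor of FGF21, had 57.9, 62.8 and 64.5 CPM in the libraries labelled knockout and 60.0, 64.2 and 52.7 CPM in the control libraries. Those ranges overlapped, with a log2 fold change of 0.07 (95% interval −0.09 to 0.23, edgeR adjusted p = 0.581). Fgfrl1, a receptor-like protein without the kinase, averaged 131.7 CPM in the libraries labelled knockout and 131.2 CPM in the control libraries (edgeR adjusted p = 0.957).

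Feedback inhibitors of receptor and ERK signalling were mostly negative in sign. Of 17 tested 4 fell (23.5%, beside 5.44% of all tested genes) and 1 rose (5.88%, beside 6.91%). The 4 are Errfi1, Sulf1, Spred1 and Spry2, and the 1 is Sulf2. Spry2 was already counted above as a fall, and Spry1 and Spry4 also belong to both lists. The median log2 change was −0.08, and 15 of 17 were negative, beside 6678 of 13192 tested genes. Errfi1, which encodes a feedback inhibitor of the EGF receptor, showed the largest fall, with 183.2, 197 and 170 CPM in the libraries labelled knockout and 284, 291 and 316 CPM in the control libraries (log2 −0.70, edgeR adjusted p = 8.47e-05). Its groups were far apart. Spred1, a Sprouty relative, fell by 0.16 on the log2 scale (edgeR adjusted p = 0.0306), a call that DESeq2 did not make (adjusted p = 0.0772) and that was lost without any 1 library other than control 2 (edgeR adjusted p from 0.0564 to 0.144). Dusp6, the ERK phosphatase, averaged 24.1 ± 0.306 CPM in the libraries labelled knockout and 26.7 ± 3.93 CPM in the control libraries (SD, n = 3 each; edgeR adjusted p = 0.325).

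The extracellular sulfatases that trim heparan sulfate moved in opposite directions. Sulf1 had 33.4, 34.6 and 37.4 CPM in the libraries labelled knockout and 47.4, 40.4 and 46.7 CPM in the control libraries, a log2 fold change of −0.36 (edgeR adjusted p = 0.0089). Sulf2 had 143, 137 and 144 CPM in the libraries labelled knockout and 117, 112 and 124 CPM in the control libraries, a log2 fold change of 0.26 (edgeR adjusted p = 0.0058). Neither gene's groups overlapped. Both also stand among the 25 tested genes of heparan sulfate proteoglycans and their synthesis, of which 4 fell (16%, beside 5.44% of all tested genes) and 2 rose (8%, near the 6.91% of all tested genes), with a median log2 change of −0.0070. The others called were Extl3, a glycosyltransferase of heparan sulfate synthesis (log2 −0.22), the syndecan gene Sdc4 (−0.25) and the glypican genes Gpc6 (−0.22) and Gpc4 (0.24), with edgeR adjusted p from 0.0085 to 0.0351. Without knockout 3, 2 of the list fell and 1 rose, and without control 3, 4 rose; the Gpc6 call was lost without control 1, control 3, knockout 2 or knockout 3 (edgeR adjusted p from 0.0813 to 0.146).

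A list of 26 tested transcripts, taken here as induced by ERK signalling, had 4 that fell (15.4%, beside 5.44% of all tested genes). In this list 1 rose (3.85%, beside 6.91%). Of the 26, 21 were negative, beside 6678 of 13192 tested genes, and the median log2 change was −0.14. Spry2, Spry4, Spred1, Spred2, Dusp4, Dusp5 and Dusp6 are counted in both this list and that of the feedback inhibitors, so their sign counts share genes. Of the 4 that fell, Spry2 and Spred1 were already counted as feedback inhibitors that fell. Hmga2, a chromatin architectural protein gene, had 67.4, 73.5 and 61.5 CPM in the libraries labelled knockout and 93.4, 88.2 and 103 CPM in the control libraries (log2 −0.49, edgeR adjusted p = 0.0020). The immediate early gene Egr1 had 121, 120.4 and 110 CPM in the libraries labelled knockout and 144, 135 and 165 CPM in the control libraries (log2 −0.34, edgeR adjusted p = 0.0111). Both pairs of groups were separate. Phlda3, known as a p53 target, rose by 0.24 on the log2 scale (edgeR adjusted p = 0.0096). The ETS factor genes Etv4 (log2 −0.08, edgeR adjusted p = 0.715) and Etv5 (log2 −0.22, edgeR adjusted p = 0.126) did not pass. Without knockout 3 the list held 2 that fell; there the call of Egr1 was lost (edgeR adjusted p = 0.068).

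Among 35 tested genes of the receptor adaptors and the RAS-ERK cascade 3 fell (8.57%, beside 5.44% of all tested genes) and 1 rose (2.86%, beside 6.91%), and the median log2 change was −0.03. In 11 of the 35 every library labelled knockout lay below every control library, beside 15.8% of all tested genes, and in 4 every one lay above, beside 16%. The GTPase genes Nras (log2 −0.27) and Rras (−0.19) and the RAS GTPase-activating protein gene Rasa1 (−0.23) fell, and the RAS exchange factor gene Sos2 (0.27) rose, with edgeR adjusted p from 0.0055 to 0.0403. Without knockout 3 the list held 1 that fell and 0 that rose, and Rras was not called by DESeq2 (adjusted p = 0.2) or without any 1 library (edgeR adjusted p from 0.069 to 0.145).

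**Figure D3:**
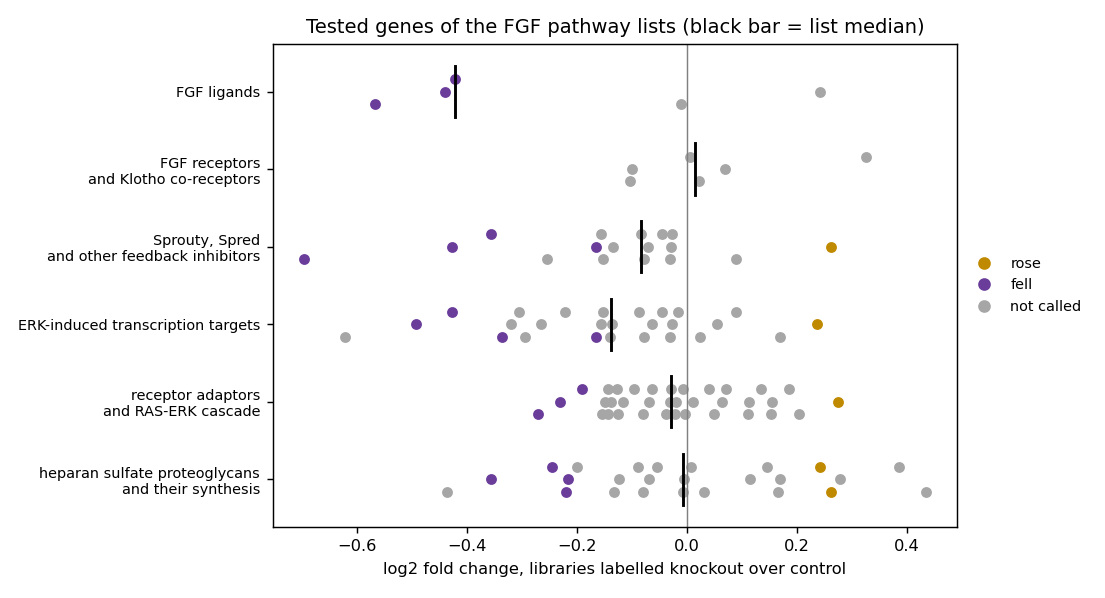
Log2 fold change (libraries labelled knockout over control) of each tested gene in 6 FGF pathway lists, with the list median as a black bar; purple points fell, ochre points rose and grey points were not called. The ligand median is at −0.42 and the receptor median at 0.01, while the remaining lists have medians between −0.14 and −0.0070.

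The integrated stress response, a program of ATF4 that includes Fgf21 among its known targets, had 2 genes that rose, Atf5 and Mthfd2, and 2 that fell, Psat1 and Slc7a5, among 21 tested (median log2 −0.02). Each is 9.52% of the list, near the 6.91% of all tested genes that rose and the 5.44% that fell. These were small changes, from −0.18 to 0.22 on the log2 scale, with edgeR adjusted p from 0.0072 to 0.0312. Without knockout 3, 0 of the 4 were called (edgeR adjusted p from 0.0506 to 0.149), and the list held 1 called gene without control 1, knockout 1 or knockout 2 and 2 without control 3.

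Fgf2, the gene of the 10 with the largest fall among those called, was set beside 10578 other genes whose level averaged 5 CPM or more. The 3 closest profiles, by the root mean square difference of centred log2 CPM over the 6 libraries, were Mgp (0.084), Nbl1 (0.095) and Arhgap18 (0.096). Mgp averaged 241.7 ± 4.78 CPM in the libraries labelled knockout and 348.1 ± 43.5 CPM in the control libraries (SD, n = 3 each). Its 2 highest libraries were also control 1 and control 3, which follows from choosing it by this profile.

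**Figure D4:**
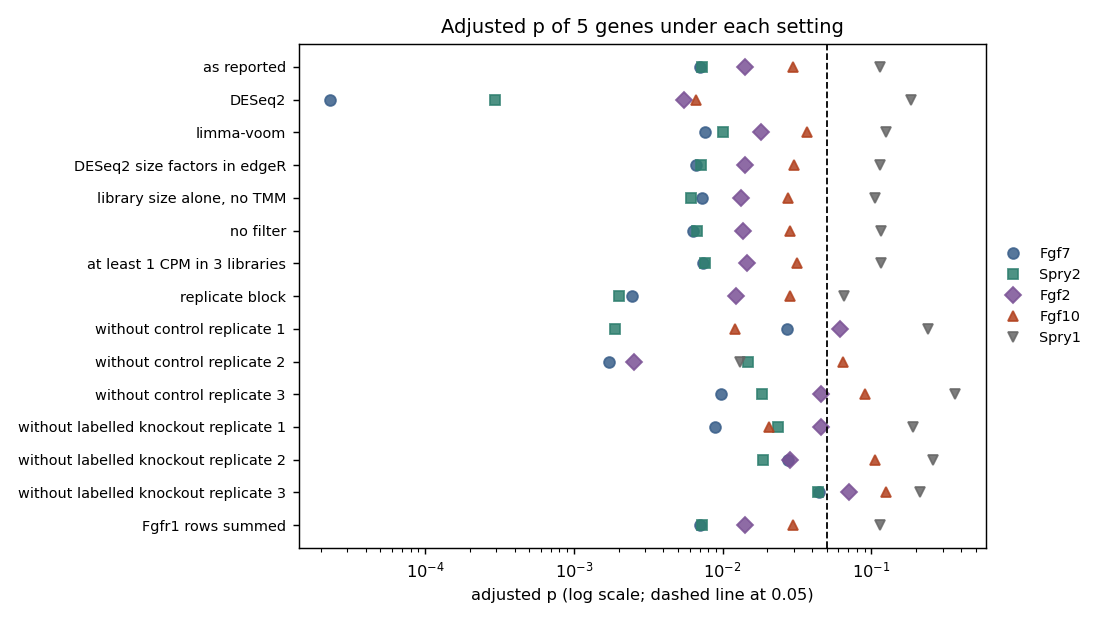
Adjusted p (log axis, dashed line at 0.05) of Fgf7, Spry2, Fgf2, Fgf10 and Spry1 as reported and under each alternative tool, scaling, filter, replicate block and left-out library. Fgf7 and Spry2 stay below 0.05 in all 15 rows, Fgf2 exceeds it in 2 and Fgf10 in 4, and Spry1 falls below it only without control 2.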

How the data were processed

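The authors deposited raw counts per gene, per the file headers, beside whole-number FPKM, handled here as a score and used for levels per length alone. The submitters' processing notes name Novoalign 2.8, Picard, DESeq2 and build mm9. Roles of these tools, the read counter and its strand setting: not given in the sources used here. Each listed gene has at least 10 counts in 1 library or more. Counts were analysed with edgeR 4.0.16 (R 4.3.3): its expression filter kept 13192 genes and left 770 untested, TMM scaled the libraries, and the quasi-likelihood test used the group alone, with Benjamini-Hochberg adjustment over all tested genes. "Rose" and "fell" mean an adjusted p under 0.05. The SE is the log2 fold change over the square root of F. Low counts carry counting error of their own.

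The 10 genes and the gene lists were chosen with earlier results of these data known, and no list was tested as a set. Where Fgfr1 had 2 rows, the row with more counts was used. Named genes were all 10, Tle3, called genes of each list (up to 8, otherwise 6 by adjusted p) and 7 fixed pathway genes. Nudt6, Ctbp2, Fabp4, Lpl, Col1a1, Col1a2, Col3a1, Pecam1, Vwf, Ptprc, Adgre1, Itgam, Csf1r, Acta2, Mcam, Fgfbp3, Fgf5 and Fgf11 are named beside them. Replicates were no duplicates of each other: chi-square per degree of freedom between them was 2.88 to 7.53. Alternatives were DESeq2 1.42.0, limma-voom 3.58.1, other scalings and filters, a replicate block and leaving out each library; the scripts were tested on simulated data. GENCODE M21 and RefSeq use another build than the authors', so only gene overlaps and promoters are taken from them.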

Additional observations from a re-analysis of the deposited data

How the results depend on the processing

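Under DESeq2, limma-voom, DESeq2 size factors, library size alone, both other filters, the replicate block and summed Fgfr1 rows, the same number of FGF and Sprouty genes, 4, fell and 0 rose. Leaving out 1 library gave 2 to 4 that fell (2 without knockout 3) and 0 that rose. All genes called ranged from 621 (without knockout 3) to 1895 when 1 library was left out, being 976 without control 1, 1068 without control 3 and 962 without knockout 2; those that rose ranged from 332 to 1025 and those that fell from 289 to 870. The 1895 came without control 2 and exceeded the 1629 called with all 6 libraries. The cause of this range was not tested. With the replicate block 1809 genes were called, and 4 of the 10 fell. Same-numbered libraries deviated together with correlations across genes of −0.04, 0.18 and 0.03, and knockout 1 correlated best with control 3 (0.21). Deviations from means of 3 libraries cannot decide whether the numbers mark pairs. Rras (edgeR adjusted p = 0.0619), Psat1 (0.0574) and Mthfd2 (0.0569) lost their call under the block. Signs turned only for log2 changes near 0 that were never called: Fgf1 (−0.12 to 0.11 without 1 library), Fgfr2 (−0.037 to 0.073), Fgfrl1 (−0.051 to 0.046, and −0.0088 with library size alone), Etv4 (−0.18 to 0.0048) and Klb (−0.0063 to 0.13). At these depths 1 CPM is 14.5 to 19.6 counts, and Fgf21 and Fgfr3 had 11 to 57 counts in the libraries labelled knockout and 18 to 59 in the control libraries.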

Other observations

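The second row named Fgfr1 had 6.98, 6.78 and 8.37 CPM in the libraries labelled knockout and 6.15, 3.99 and 7.81 CPM in the control libraries, with a log2 fold change of 0.27 (edgeR adjusted p = 0.404), where that of the main Fgfr1 row was −0.10. Fgf11, an intracellular FGF homologous factor that is not secreted, averaged 0.889 CPM in the libraries labelled knockout and 0.901 CPM in the control libraries (edgeR adjusted p = 0.927).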
